A study of Mus musculus with 10 samples.

Results

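Glucose metabolism in cultured adipocytes was described here through 37 genes that encode the glucose and lactate transporters, the enzymes of glycolysis and lactate formation, the enzymes that control fructose 2,6-bisphosphate, the glycerol 3-phosphate shuttle, phosphoenolpyruvate carboxykinase (PEPCK), the pentose phosphate pathway and glycogen turnover. The genes were chosen by their place in these pathways and were found in the table of counts by their symbols. The 37 symbols matched 38 of the 56748 genes listed, since the symbol Aldoa stands for 2 Ensembl genes. All 38 were among the 14270 genes with enough counts to be tested.

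RNA-seq covered 10 libraries of primary adipocytes, which are fat cells differentiated in culture from the stromal vascular fraction of mouse inguinal fat. The 5 control libraries had the genotype Fam20c-flox and the 5 KO libraries the genotype Fam20c-flox/Adipoq-Cre. All 10 therefore carried the floxed Fam20c gene, which encodes a kinase of the secretory pathway, and all had gone through adipogenic differentiation. The study's methods give donors that were male and 6 to 8 weeks old, on a background backcrossed to C57BL/6J, and a differentiation of 6 to 8 days. The promoter of Adipoq drives Cre in differentiated adipocytes, so other cells of the culture keep Fam20c. The labels do not say whether the libraries of a group came from separate mice or cultures, so that p-values measure the spread between these libraries, which may be technical.

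Glycolysis splits glucose into pyruvate and yields ATP, and lactate dehydrogenase turns pyruvate into lactate when oxygen runs short. In adipocytes glycolysis also supplies glycerol 3-phosphate, the backbone of stored triglyceride, and the pentose phosphate pathway supplies the NADPH that fatty acid synthesis consumes. Many glycolytic genes, but not those of the pentose phosphate pathway as a class, are textbook targets of the hypoxia-inducible factors, whose binding motif holds ACGTG.

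The libraries held 18949106 to 26237825 counts. Levels are given as CPM, which are counts scaled to a common library size by the TMM method of edgeR. Fam20c had 8.86 to 11.9 CPM in control and 6.65 to 7.74 CPM in KO libraries, with a log2 fold change of -0.49 (edgeR quasi-likelihood test, Benjamini-Hochberg adjusted p = 0.0137), and its floxed exons were not counted apart from the rest of the gene. Control library 4 and KO library 1 stood apart from the other libraries on the leading principal component, which held 23.5% of the variance, so that the main counts of genes called are also given without them. The adipocyte markers summed to 28741 to 29670.1 CPM in control and 30129.9 to 32184 CPM in KO libraries, with none of the 10 at 0. Most of each sum was Fabp4, at 20363.3 to 21356.5 CPM in control and 21299.7 to 23548.5 CPM in KO libraries, which overlapped. Of the 10 log2 fold changes 8 were positive and 2 negative, with a median of 0.063. None of the 10 passed the adjusted limit (edgeR). An unadjusted p under 0.05 was reached by 4, all higher in KO libraries, beside 11.9% of all genes in either direction. The lipase gene Lipe passed without control 4 and KO 1, with a log2 fold change of 0.19 (adjusted p = 0.0415, edgeR). In that fit 1.01% of all genes were called higher, and its p-values are descriptive only, since both libraries were picked from these data.

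The 38 genes covered a wide range of levels, compared here as CPM per kb of annotated exon over the 10 libraries. The length is that of all annotated exons of a gene merged. It may exceed that of the transcripts present, so ranks per kb depend on it. Aldoa, the main aldolase, had the highest level at 1475 ± 91.2 CPM per kb (SD, n = 10). It was followed by Gpd1, the cytosolic glycerol 3-phosphate dehydrogenase, at 1066 ± 46.5 CPM per kb. Gapdh, which oxidizes glyceraldehyde 3-phosphate, had 728 ± 111, Ldha, the lactate dehydrogenase subunit of glycolytic tissues, had 628 ± 94.9, and Tpi1 and Pgk1, the triose phosphate isomerase and phosphoglycerate kinase, had 409 ± 58.9 and 409 ± 76.7 CPM per kb. The intervals of Tpi1 and Pgk1 overlapped almost wholly, so their order was not resolved. The order of Gpd1 and Gapdh rests largely on their exon lengths, 2.961 and 4.133 kb, since their CPM overlapped. Their means were 3128 and 2916 CPM in control and 3184 and 3103 CPM in KO libraries. The lowest level belonged to Pfkfb4, an isoform of the bifunctional enzyme that makes and breaks fructose 2,6-bisphosphate, at 1.78 ± 0.239 CPM per kb.

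**Figure D1:**
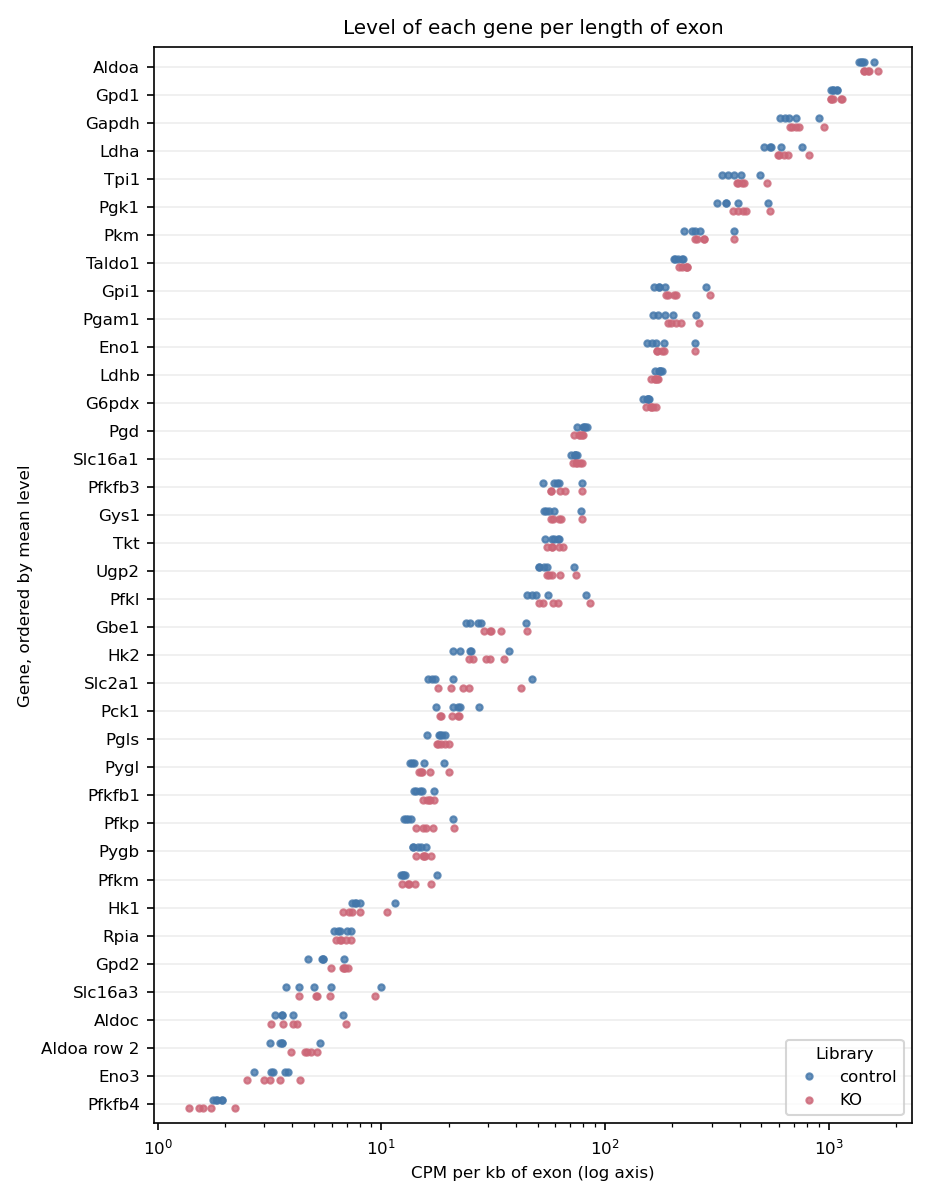
Level of each of the 38 genes in CPM per kb of exon (log axis) in the 5 control (blue) and 5 KO (red) libraries, ordered by the mean of the 10; Aldoa row 2 is the other Ensembl gene of that symbol. Aldoa is highest and Pfkfb4 lowest, and the control and KO points of each gene overlap.

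Most steps with several isoforms had a leading one in these cultures. Hk2, the insulin-responsive hexokinase, had 27.6 ± 5.38 CPM per kb and Hk1, the housekeeping form, 8.23 ± 1.58. Of the phosphofructokinases, which commit hexose to glycolysis, Pfkl had 58.8 ± 14.1 CPM per kb against 15.7 ± 3.13 for Pfkp and 13.7 ± 1.93 for Pfkm, so the liver-type gene led. The merged exons of Pfkp and Pfkm span 13.401 and 3.34 kb, and their control means were 196 and 45.2 CPM. Aldoc, the brain-type aldolase, had 4.33 ± 1.36 CPM per kb, and the other Aldoa gene had 4.24 ± 0.760. That other gene (ENSMUSG00000114515.3, chr7:126800790-126809108, minus strand of GRCm38) is annotated as protein coding just upstream of the main one (ENSMUSG00000030695.17, chr7:126795234-126800751, minus strand).

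The isoforms of the later steps were as unequal. Eno1 had 187 ± 35.1 CPM per kb and Eno3, the muscle-type enolase, 3.33 ± 0.546. Ldhb, the subunit of oxidative tissues, had 171 ± 5.87 CPM per kb and thus lay below Ldha. The lactate carrier Slc16a1 had 74.3 ± 2.46 CPM per kb against 5.88 ± 2.12 for Slc16a3, the carrier of lactate-exporting cells, and the basal glucose carrier Slc2a1 had 24.7 ± 10.9. Pfkfb3 had 63.6 ± 8.74 CPM per kb and Pfkfb1 15.7 ± 1.12. Only the glycogen phosphorylases Pygl and Pygb lay level per kb, at 15.7 ± 2.24 and 15.1 ± 0.927 CPM per kb. Their merged exons span 6.895 and 4.809 kb, and their control means were 104 and 70.3 CPM.

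Among the remaining genes of glycolysis, Pkm, which makes pyruvate, had 280.3 ± 53.0 CPM per kb, Gpi1, the glucose 6-phosphate isomerase, 207 ± 45.3, and Pgam1, the phosphoglycerate mutase, 206 ± 32.5. In the pentose phosphate pathway Taldo1, the transaldolase, led with 219 ± 10.3 CPM per kb, ahead of G6pdx, the entry dehydrogenase, at 157 ± 5.91, Pgd, the other NADPH-forming dehydrogenase, at 78.6 ± 3.15 and Tkt, the transketolase, at 59.3 ± 3.44. Pgls, the lactonase between those dehydrogenases, had 18.4 ± 1.13 and Rpia, the ribose 5-phosphate isomerase, 6.70 ± 0.411 CPM per kb. For glycogen, the synthase Gys1 had 62.2 ± 9.17, Ugp2, which makes UDP-glucose, 58.8 ± 8.50 and the branching enzyme Gbe1 31.7 ± 7.40 CPM per kb. Pck1, the cytosolic PEPCK, had 21.2 ± 2.80 CPM per kb, and Gpd2, the mitochondrial glycerol 3-phosphate dehydrogenase, 6.13 ± 0.827.

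The comparison of KO with control adipocytes asked whether the KO genotype went with a different expression of these genes. Only the KO genotype holds Adipoq-Cre, so an effect of that transgene and one of Fam20c cannot be told apart. No gene of the 38 passed an adjusted p of 0.05 (edgeR quasi-likelihood test, Benjamini-Hochberg over all genes tested), where 2.17% of all genes passed. DESeq2 called 0 as well, and limma voom with quality weights called 1, Gpd2. An unadjusted p under 0.05 was reached by 1 of the 38, Gpd2, against 11.9% of all genes. In none of the 38 did the KO libraries all lie above the control libraries, as in 1.31% of all genes, or all below, as in 2.66%. The log2 fold changes ran from -0.14 for Pfkfb4 to 0.27 for the other Aldoa gene, with a median of 0.078 beside -0.00085 for all genes, and 32 of the 38 were positive (84.2%, against 49.7% of all genes). In these bulk cultures, fewer cells of a type and less RNA per cell cannot be told apart.

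The precision differed widely between genes. Standard errors of the log2 fold changes ran from 0.0356 for Ldhb to 0.307 for Slc2a1. For 32 of the 38 genes the 95% interval lay within 0.5 of 0 on the log2 scale, while for the other 6 it reached further, with the widest at -0.55 to 0.78 for Slc2a1. A gene that did not pass the limit is therefore not shown to be equal in the groups. The counts of single genes in a library ran from 55 to 107976. The share of counting error in the spread between libraries was not measured gene by gene.

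**Figure D2:**
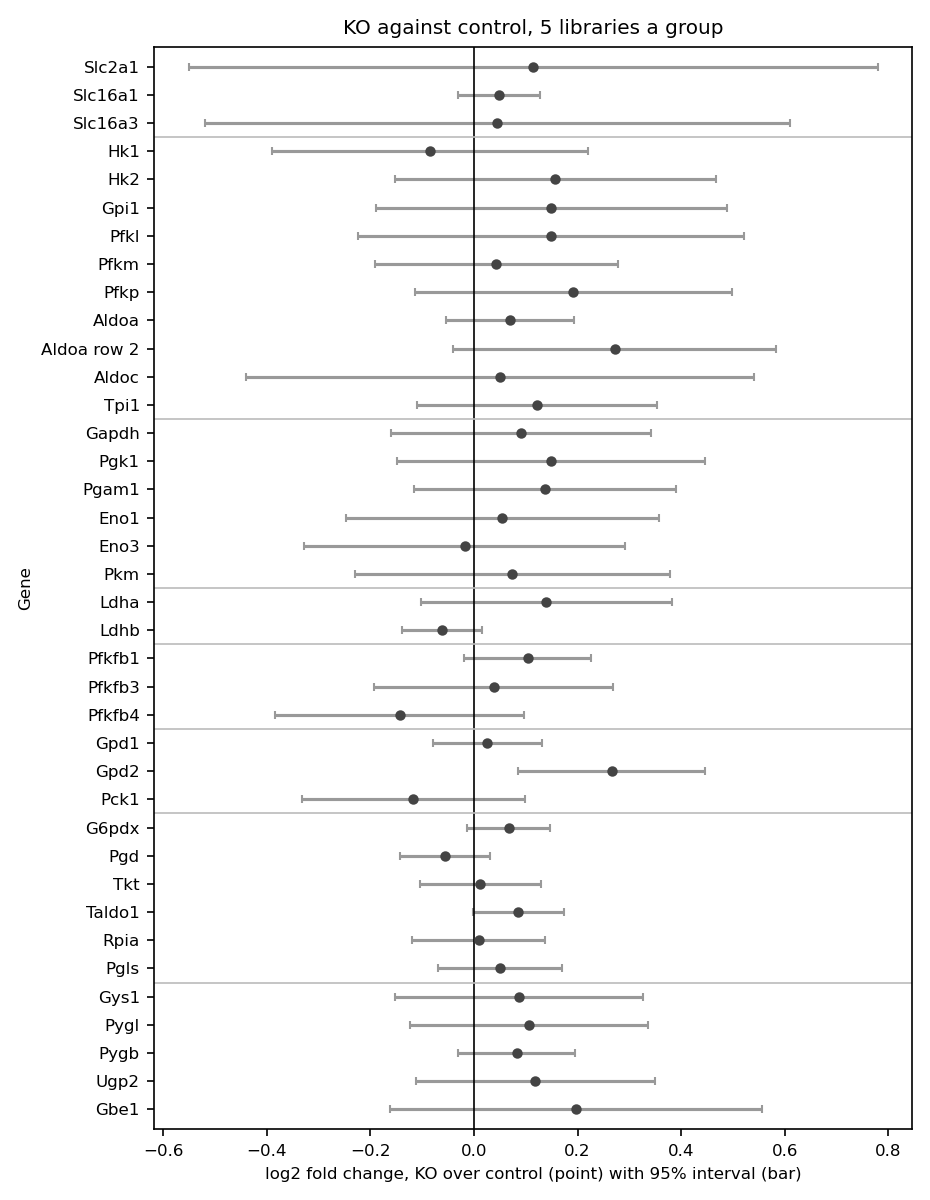
Log2 fold change of KO over control (points) with its 95% interval (bars) for the 38 genes, grouped by pathway step from transport at the top to glycogen at the bottom, n = 5 libraries a group. The Gpd2 interval, 0.086 to 0.45, lies above 0, and each of the other 37 includes 0.

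Gpd2 (ENSMUSG00000026827.13, chr2:57237635-57370719, plus strand), whose enzyme passes electrons from cytosolic glycerol 3-phosphate to the respiratory chain, had the smallest p of the group. Controls 1 to 5 had 35.8, 35.8, 30.9, 44.5 and 35.4 CPM and KO 1 to 5 had 44.1, 45.1, 39.2, 46.3 and 44.4 CPM. Each KO library lay above controls 1, 2, 3 and 5, while control 4 lay among the KO libraries. The means were 36.5 ± 4.97 CPM in control and 43.8 ± 2.72 CPM in KO libraries (SD, n = 5), with a log2 fold change of 0.27 (SE 0.0830, unadjusted p = 0.00720, adjusted p = 0.162, edgeR). Without control 4 the gene passed the limit, with its log2 fold change at 0.35 (adjusted p = 0.00778, edgeR). Leaving out the control that lay among the KO libraries favours such a call, so that p is descriptive only. Over all 17 alternatives (edgeR, DESeq2 or voom) the adjusted p of Gpd2 ran from 0.00778 to 0.312. Exons of the noncoding gene A930012O16Rik on the other strand share 487 bases with Gpd2. The partner of Gpd2 in the shuttle, Gpd1, ran from 3017 to 3234 CPM in control and from 3029.8 to 3406 CPM in KO libraries, with a log2 fold change of 0.026 (SE 0.0484).

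Pck1, which feeds glyceroneogenesis in fat, ran from 60.1 to 93.5 CPM in control and 62.8 to 75.9 CPM in KO libraries, with its log2 fold change at -0.12 (SE 0.0994, adjusted p = 0.739, edgeR). The groups overlapped in all 3 genes of glycerol 3-phosphate and PEPCK.

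In the pentose phosphate pathway, 5 of 6 log2 fold changes were positive and all lay between -0.056 and 0.085. Taldo1, which exchanges carbon units between sugars, had 448, 478, 462, 439.9 and 482 CPM in controls 1 to 5 and 481, 464, 500.2, 503 and 502 CPM in KO 1 to 5. KO 3, 4 and 5 stood above all controls and KO 1 and 2 among them, with a log2 fold change of 0.085 (SE 0.0405, adjusted p = 0.441, edgeR). G6pdx, the gene of the rate-limiting NADPH step, had 477, 473, 454, 481 and 482 CPM in controls and 492, 494, 472, 518 and 505 CPM in KO libraries, a log2 fold change of 0.067 (SE 0.0371, adjusted p = 0.535, edgeR). Only KO 3 lay within the control values of G6pdx, and exons of Ikbkg on the other strand overlap it by 418 bases.

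Pgd had 525, 515, 536, 485 and 521 CPM in controls and 468, 499, 514, 509 and 495 CPM in KO libraries, with a log2 fold change of -0.056 (SE 0.0402, adjusted p = 0.676, edgeR). The groups of Pgd overlapped through control 4, the lowest control. Tkt, Rpia and Pgls had log2 fold changes of 0.013, 0.0092 and 0.050, with standard errors of 0.0537 to 0.0590.

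The hexose steps, as grouped here, count both Aldoa genes and include Tpi1, whose enzyme acts on triose phosphates. Of the 10 hexose-step genes, 9 had a positive log2 fold change, and their median was 0.14. Pfkp, the platelet-type phosphofructokinase (ENSMUSG00000021196.15, chr13:6579768-6648777, minus strand), had 170.1, 182, 173, 279 and 176 CPM in controls 1 to 5 and 284, 227, 212, 191 and 206 CPM in KO 1 to 5. The groups overlapped through control 4. Apart from that library, which was picked from these data, each control library lay below each KO library. The share of all genes separated when a single library is set aside was not counted, for this or other genes. The log2 fold change was 0.19 (SE 0.141, adjusted p = 0.684, edgeR), and exons of Pitrm1 on the other strand share 748 bases with Pfkp. Aldoa had 3979.9, 4049, 4116, 4635 and 4165 CPM in controls and 4809.7, 4172, 4375, 4204 and 4419 CPM in KO libraries, with a log2 fold change of 0.070 (SE 0.0566, adjusted p = 0.725, edgeR). The controls other than control 4 again lay below all KO libraries. The other Aldoa gene, the lowest of the hexose genes in CPM, had 2.88, 2.81, 2.87, 4.26 and 2.54 CPM in controls and 4.12, 3.64, 3.71, 3.16 and 3.87 CPM in KO libraries, a log2 fold change of 0.27 (SE 0.144, adjusted p = 0.504, edgeR), with the same arrangement of libraries.

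The log2 fold changes of the remaining hexose genes were -0.084 for Hk1, 0.16 for Hk2, 0.15 for Gpi1, 0.15 for Pfkl, 0.043 for Pfkm, 0.050 for Aldoc and 0.12 for Tpi1. Those of the triose steps were 0.090 for Gapdh, 0.15 for Pgk1, 0.14 for Pgam1, 0.055 for Eno1, -0.018 for Eno3 and 0.074 for Pkm. The standard errors of the triose genes, 0.116 to 0.143, were of the size of these values.

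The lactate dehydrogenase genes differed in sign. Ldha had 1818, 1699.8, 1816, 2523 and 2034 CPM in controls and 2693, 2167, 1966, 1977 and 2095 CPM in KO libraries, with a log2 fold change of 0.14 (SE 0.111, adjusted p = 0.714, edgeR). Control 4 and KO 1 were the highest libraries of their groups and the rest of the groups overlapped. Ldhb had 264, 278, 272, 278 and 282 CPM in controls and 269, 261, 272, 251 and 263 CPM in KO libraries, with a log2 fold change of -0.061 (SE 0.0356, adjusted p = 0.564, edgeR). Its values spanned a narrow range and the groups overlapped.

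For transport, Slc16a1 had 326, 331, 310.2, 324 and 325 CPM in controls and 319, 349, 329.8, 342 and 332 CPM in KO libraries, with a log2 fold change of 0.049 (SE 0.0364, adjusted p = 0.695, edgeR). Control 3 was the lowest library and KO 2 the highest. Slc2a1 and Slc16a3 had log2 fold changes of 0.11 and 0.045, with standard errors of 0.307 and 0.261, the largest of the 38.

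The control of fructose 2,6-bisphosphate, the activator of phosphofructokinase, gave values of both signs. Pfkfb1 had 61.0, 60.0, 56.1, 69.0 and 57.6 CPM in controls and 65.5, 69.2, 61.4, 64.1 and 66.0 CPM in KO libraries, a log2 fold change of 0.10 (SE 0.0569, adjusted p = 0.531, edgeR). Control 4 had the highest value of Pfkfb1 but for KO 2, and exons of Apex2 on the other strand overlap the gene by 123 bases. Pfkfb4 had 8.65, 9.00, 9.50, 9.48 and 8.92 CPM in controls and 10.8, 7.46, 8.47, 7.79 and 6.72 CPM in KO libraries, with a log2 fold change of -0.14 (SE 0.111, adjusted p = 0.704, edgeR). KO 1 was the highest library of all for Pfkfb4, and the other KO libraries lay below every control. Pfkfb3 had a log2 fold change of 0.038 (SE 0.106).

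All 5 glycogen genes had positive log2 fold changes. Gbe1, which adds branches to glycogen (ENSMUSG00000022707.17, chr16:70313949-70569716, plus strand), had 144, 127, 133, 237 and 149.8 CPM in controls and 239, 184, 154, 166 and 164 CPM in KO libraries, a log2 fold change of 0.20 (SE 0.166, adjusted p = 0.736, edgeR). The groups overlapped through control 4, while the other controls lay below each KO library, an arrangement not counted over all genes. Pygb, the brain-type phosphorylase, had 75.8, 72.5, 66.5, 66.9 and 70.0 CPM in controls and 80.4, 73.9, 74.3, 68.3 and 75.4 CPM in KO libraries, a log2 fold change of 0.082 (SE 0.0518, adjusted p = 0.606, edgeR). KO 4 lay among the controls of Pygb and control 1 among its KO libraries. Gys1, Pygl and Ugp2 had log2 fold changes of 0.087, 0.11 and 0.12 (SE 0.110, 0.106 and 0.107).

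The clearest feature of these genes was a spread within the groups, not between them. Control 4 was the highest control library in 26 of the 38 genes (68.4%) and KO 1 the highest KO library in 27 (71.1%), and both held in 24 (63.2%). Over all genes tested the shares were 30.9%, 26.5% and 14.7%. The 38 genes together took 2.71% of the counts in control 4 and 2.14% to 2.37% in the other controls, and 2.80% in KO 1 and 2.30% to 2.40% in the other KO libraries. The median gene of the 38 had 1.36 times the mean of the other controls in control 4 and 1.30 times the mean of the other KO libraries in KO 1, where the median over all genes was 1.00 in both.

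**Figure D3:**
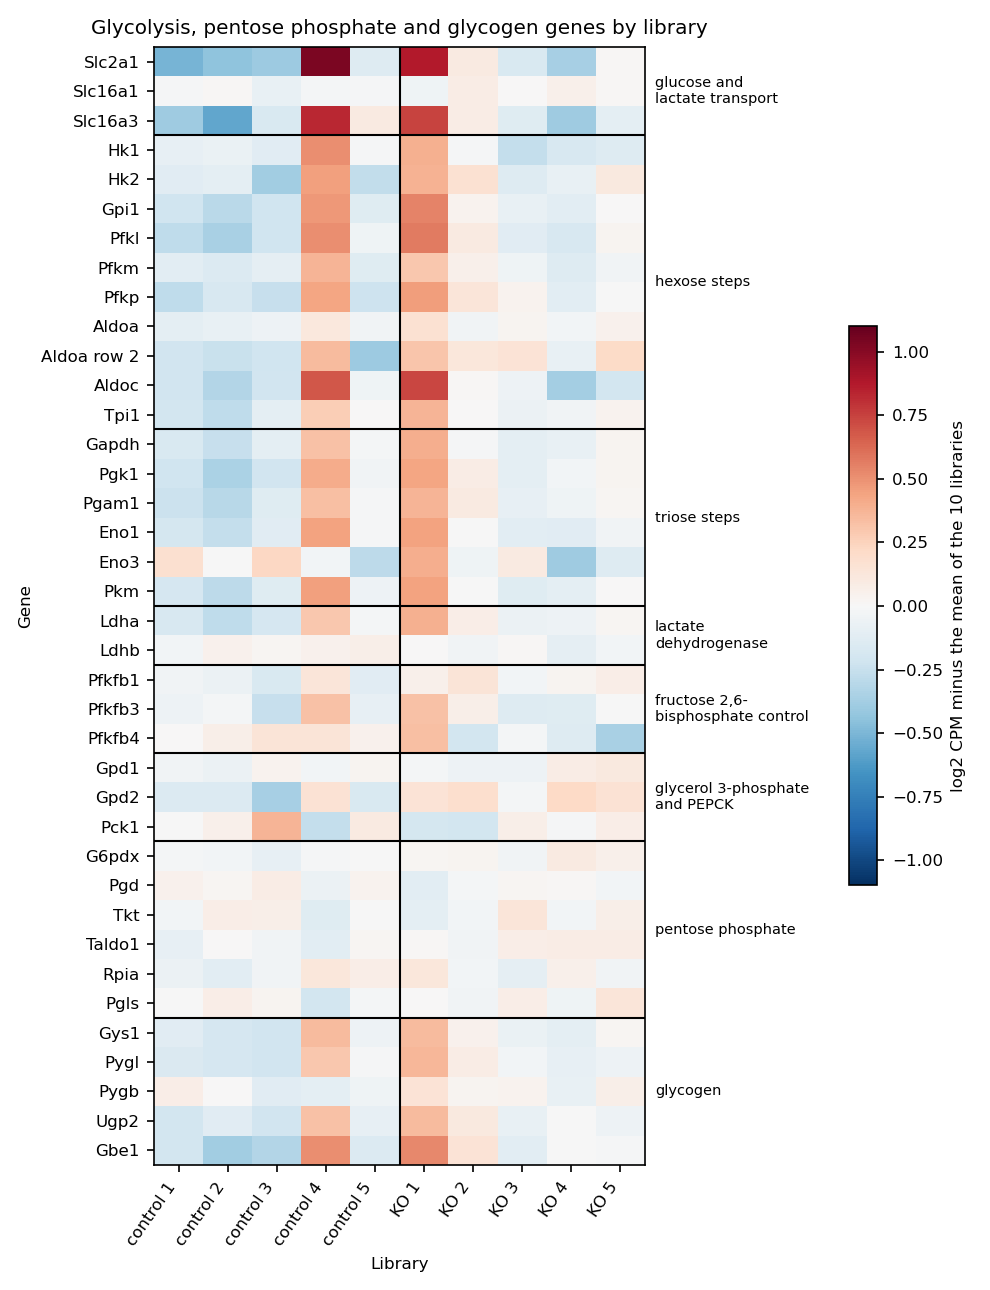
Log2 CPM of each of the 38 genes in each library minus that gene's mean over the 10 libraries (colour, from -1.1 in blue to 1.1 in red), with the genes grouped by pathway step and Aldoa row 2 the other Ensembl gene of that symbol. The columns of control 4 and KO 1 are red for 10 of 10 hexose-step genes and pale for most pentose phosphate genes.

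The pattern differed between the steps. Both libraries were the highest of their groups in 10 of 10 genes of the hexose steps, in 5 of 6 of the triose steps, in 4 of 5 of glycogen turnover and in 2 of 3 transporters. They were so in 1 of 6 genes of the pentose phosphate pathway, Rpia, in 1 of 2 lactate dehydrogenase genes, Ldha, in 1 of 3 of fructose 2,6-bisphosphate control, Pfkfb3, and in 0 of 3 of glycerol 3-phosphate and PEPCK. In the pentose phosphate pathway control 4 was instead the lowest control in 4 of 6 genes. Eno3, Pygb, Ldhb and Slc16a1 were the genes that kept their steps from being complete.

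Slc2a1 showed the pattern most strongly. Its level was 56.6, 59.4, 61.1, 166 and 73.3 CPM in controls 1 to 5 and 148, 86.2, 72.0, 62.7 and 81.5 CPM in KO 1 to 5. Control 4 had 2.65 times the mean of the other controls and KO 1 had 1.95 times the mean of the other KO libraries, and the remaining libraries of the groups overlapped. Slc16a3 had 22.7, 20.0, 26.5, 52.8 and 31.8 CPM in controls and 49.9, 31.5, 27.1, 22.7 and 27.5 CPM in KO libraries, ratios of 2.09 and 1.83 for the same libraries. Its sister Slc16a1, given above, had ratios of 1.00 and 0.943.

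Gpi1 had 1125, 1062, 1126, 1817 and 1193 CPM in controls and 1907, 1345, 1235, 1210.2 and 1316 CPM in KO libraries. Here control 4 and KO 1 exceeded every other library, and the remaining KO libraries lay above the remaining controls. Pfkl, with 548 CPM in control 4 against 299 to 371 in the other controls and 569 CPM in KO 1 against 339 to 411 in the other KO libraries, had the same arrangement of the highest libraries. Aldoc had 21.9 against 10.9 to 13.2 CPM and 22.7 against 10.5 to 13.7 CPM, so that the minor aldolase swung more widely than Aldoa, at 1.84 and 1.85 times the other libraries against 1.14 and 1.12.

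Pgk1, which makes ATP, had 778, 709, 782, 1203 and 881 CPM in controls and 1224, 956, 837, 884 and 924 CPM in KO libraries. Pkm had 1887 CPM in control 4 and 1131 to 1331 in the other controls, and 1882 CPM in KO 1 and 1259 to 1383 in the other KO libraries. In the pentose phosphate genes other than Rpia the same libraries were unremarkable or low. Pgls had 60.1 CPM in control 4 against 68.0 to 72.6 in the other controls, and Tkt had 396 against 427 to 458 CPM.

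**Figure D4:**
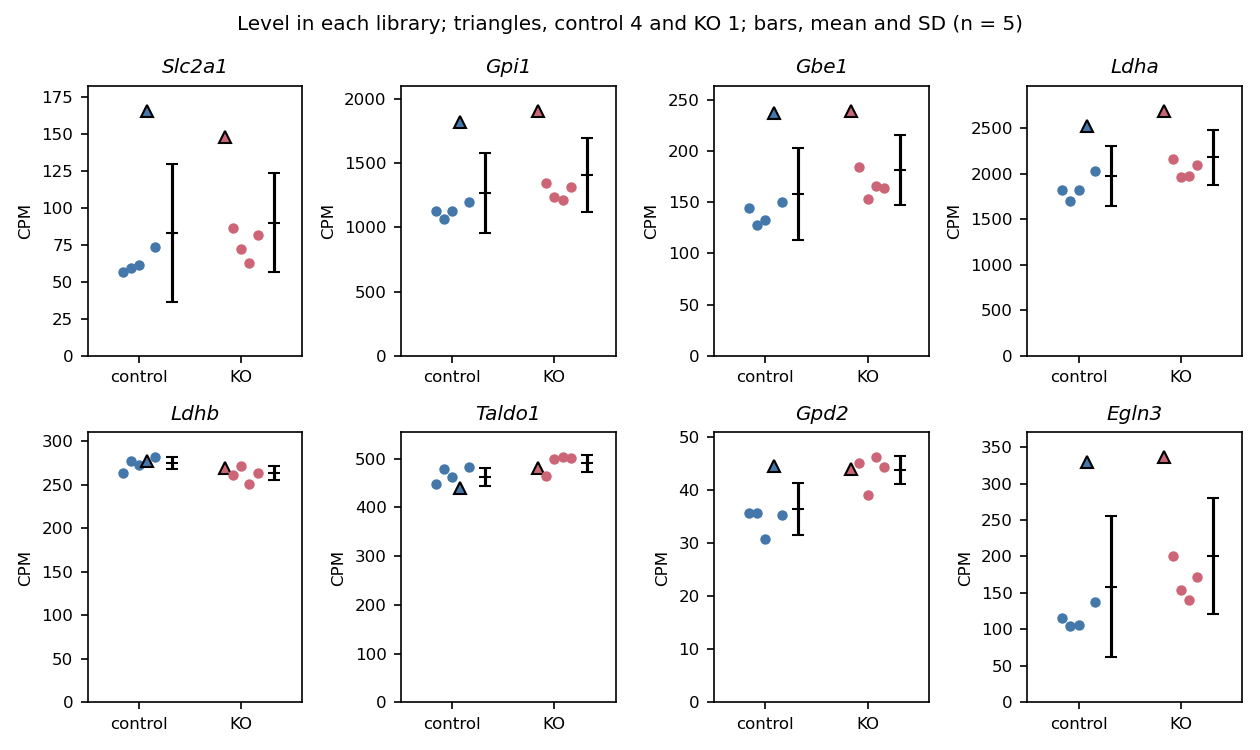
CPM in each control and KO library for Slc2a1, Gpi1, Gbe1, Ldha, Ldhb, Taldo1, Gpd2 and the hypoxia-induced gene Egln3, with control 4 and KO 1 as triangles and bars for the mean and SD (n = 5). The triangles stand above all other libraries for Slc2a1, Gpi1, Gbe1, Ldha and Egln3 and not for Ldhb, Taldo1 or Gpd2.

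Hypoxia-induced genes outside glycolysis had the same libraries on top. Of the 12 listed, 11 were tested, and control 4 and KO 1 were the highest libraries of their groups in 11 of 11. Egln3, the oxygen sensor that marks the hypoxia-inducible factors for removal, had 116, 104, 107, 329 and 138 CPM in controls and 336, 201, 154, 140.3 and 172 CPM in KO libraries. Vegfa had 430.2 CPM in control 4 against 180.0 to 226 in the other controls and 399 CPM in KO 1 against 189 to 292 in the other KO libraries, and the mitophagy receptor gene Bnip3 had 1309 against 760.3 to 891 CPM and 1363 against 998 to 1149 CPM. The transcript of Hif1a itself ran from 104 to 119 CPM in controls, lowest in control 4, and from 94.0 to 111 CPM in KO libraries, lowest in KO 1. Of the further genes of these pathways, both libraries were the highest in 8 of 20 of glycolysis and gluconeogenesis, 1 of 6 of the pentose phosphate pathway, 7 of 21 of glycogen and 3 of 8 regulators. What set these libraries apart was not tested.

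The promoters of the genes were also read for ACGTG, the core of the motif named above. RefSeq windows of 300 bases (250 before to 50 after a transcript start, GRCm38.p6) were matched by symbol for 36 of the 37 symbols, and ACGTG was searched on both strands, which includes each CACGTG E-box. It was present in 22 of the 54 windows of these genes (40.7%) and in 19.6% of all 32851 windows. In the window nearest to the annotated gene start it was held by 15 of the 36 symbols (41.7%), against 25.6% of 10556 tested genes with a window. Of the 23 symbols with control 4 and KO 1 on top 12 held it there, and of the other 13 symbols 3 did, which were Slc16a1, G6pdx and Pygb. This split follows the library pattern seen in these data, and the difference between its parts was not tested. Aldoa, Hk1, Pkm and Gpd2 held the motif in another window only. A match describes letters and is neither a binding site nor a cause. The 250 bases before the start are shown for 4 genes with a match and for Gpi1, which shared the library pattern with no match. Letters of ACGTG or of its reverse complement CACGT are in capitals, and each sequence reads 5′ to 3′ on the strand of the gene. 
Slc2a1: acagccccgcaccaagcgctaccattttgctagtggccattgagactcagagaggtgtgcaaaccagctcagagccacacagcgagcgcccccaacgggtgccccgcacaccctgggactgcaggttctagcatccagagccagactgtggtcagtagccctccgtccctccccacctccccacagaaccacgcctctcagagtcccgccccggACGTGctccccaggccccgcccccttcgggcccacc 
Hk2: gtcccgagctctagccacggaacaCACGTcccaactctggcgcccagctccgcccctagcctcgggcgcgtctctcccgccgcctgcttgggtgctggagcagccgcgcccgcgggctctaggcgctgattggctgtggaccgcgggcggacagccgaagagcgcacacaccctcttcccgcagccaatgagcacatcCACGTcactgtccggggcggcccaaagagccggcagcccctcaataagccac 
Pgk1: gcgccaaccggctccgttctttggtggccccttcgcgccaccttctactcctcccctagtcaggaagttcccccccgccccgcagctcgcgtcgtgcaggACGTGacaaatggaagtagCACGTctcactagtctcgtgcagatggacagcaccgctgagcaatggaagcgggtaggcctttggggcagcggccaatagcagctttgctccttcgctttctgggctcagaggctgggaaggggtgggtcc 
Ldha: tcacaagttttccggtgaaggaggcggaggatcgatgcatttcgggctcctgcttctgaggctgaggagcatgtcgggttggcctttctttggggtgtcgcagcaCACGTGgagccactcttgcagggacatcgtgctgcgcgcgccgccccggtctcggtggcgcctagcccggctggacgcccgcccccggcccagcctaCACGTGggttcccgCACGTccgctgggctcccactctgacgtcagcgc 
Gpi1: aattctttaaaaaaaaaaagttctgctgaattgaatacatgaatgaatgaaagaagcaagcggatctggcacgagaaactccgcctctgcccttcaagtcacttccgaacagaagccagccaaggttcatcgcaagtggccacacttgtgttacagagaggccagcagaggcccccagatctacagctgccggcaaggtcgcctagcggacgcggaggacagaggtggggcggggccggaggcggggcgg

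The sequence of Slc2a1 (chr4:119108495-119108744, plus strand) holds a match that begins 36 bases before the start. Hk2 (chr6:82774455-82774704, minus strand) has matches beginning 226 and 52 bases before it, and Pgk1 (chrX:106186850-106187099, plus strand) 150 and 131 bases before it. Ldha (chr7:46845554-46845803, plus strand) holds 2 E-boxes, CACGTG, from 145 and 48 bases before the start, and a further match from 34 bases before it. The Gpi1 window (chr7:34230337-34230586, minus strand) holds none.

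Without control 4 and KO 1, 4 libraries remained in each group. In that fit 3 of the 38 genes were called higher in KO libraries at an adjusted p of 0.05 (edgeR), as were 1.01% of all genes. They were Gpd2, with a log2 fold change of 0.35 (adjusted p = 0.0133), Pfkp, with 0.25 (adjusted p = 0.0189), and Gbe1, with 0.27 (adjusted p = 0.0365, edgeR). An unadjusted p under 0.05 was reached by 17 of the 38, 16 of them positive and 1, Pfkfb4, negative, against 15.6% of all genes. Each remaining KO library lay above each remaining control in 8 of the 38 genes, as in 4.84% of all genes, and below it in 2, as in 5.96%. The 8 were Gpi1, Pfkp, both Aldoa genes, Pfkfb1, Gpd2, Ugp2 and Gbe1, and the 2 were Pfkfb4 and Pgd.

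The direction of the group was little altered by leaving both libraries out together. Of the 38 log2 fold changes 32 were positive in that fit (84.2%, against 51.0% of all genes), and the median was 0.091 beside 0.0029 for all genes. The log2 fold changes of Gpi1, Hk2, Pgk1 and Slc2a1 were 0.18, 0.24, 0.19 and 0.27, with adjusted p of 0.0723, 0.139, 0.142 and 0.202 (edgeR). Leaving out control 4 alone gave a median of 0.20 and leaving out KO 1 alone a median of 0.031, so the size of the median depended on which of the pair was kept. These libraries were left out because they stood apart on all genes, and glycolytic genes are among those that set them apart. The choice thus came from these same data and narrows the spread of such genes. P-values and counts of separated genes from that fit, and from the fit without control 4 alone, are descriptive only, wherever they are given.

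Ratios between isoforms or paired enzymes of a step do not depend on the scaling between libraries. Of 10 ratios compared by a 2-sided exact permutation test over every way of splitting the libraries into groups of 5, none passed the Benjamini-Hochberg adjustment over the 10, which a single ratio could not pass at this number of libraries. The smallest p belonged to Hk2 over Hk1. Its log2 ratio of counts was 1.19, 1.19, 0.98, 1.17 and 0.97 in controls 1 to 5 and 1.22, 1.42, 1.35, 1.33 and 1.48 in KO 1 to 5, so that each KO library lay above each control. The difference of 0.26 had an exact p of 0.00794, the smallest that 5 against 5 libraries allow, and 0.0794 after adjustment. Per kb of exon, Hk2 was 3.06 times Hk1 in control and 3.66 times in KO adipocytes.

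**Figure D5:**
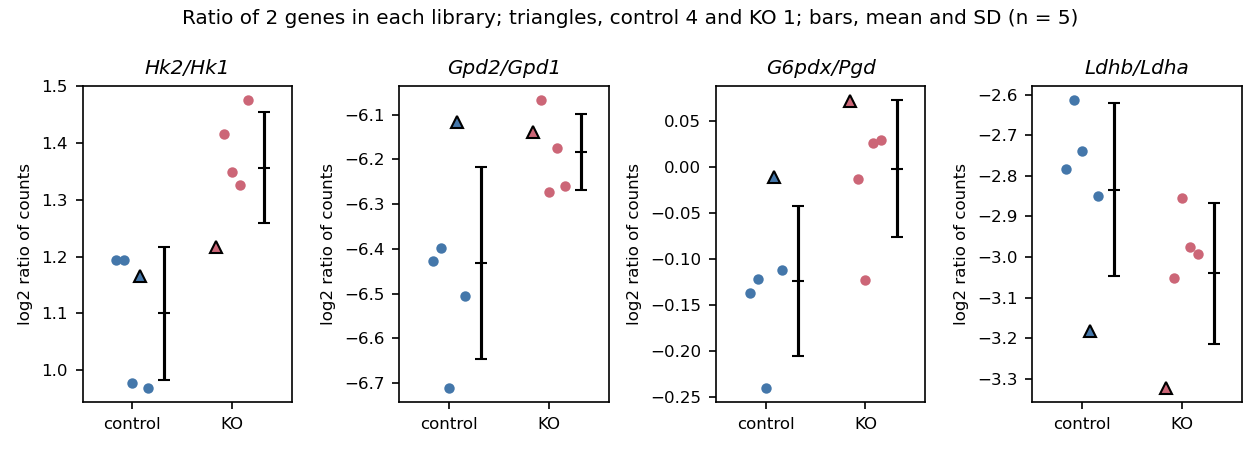
Log2 ratio of counts in each library for Hk2 over Hk1, Gpd2 over Gpd1, G6pdx over Pgd and Ldhb over Ldha, with control 4 and KO 1 as triangles and bars for the mean and SD (n = 5). The KO points of Hk2 over Hk1 all lie above the control points, and the groups overlap in the other panels.

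Control 4 and KO 1 did not stand apart in the Hk2 to Hk1 ratio, since both hexokinases had their highest values there. The log2 ratio of Gpd2 to Gpd1 was -6.43 ± 0.21 in control and -6.18 ± 0.085 in KO libraries (SD, n = 5), a difference of 0.25 (exact permutation p = 0.0476, adjusted 0.185). That of G6pdx to Pgd differed by 0.12 (exact permutation p = 0.0556, adjusted 0.185), and that of Ldhb to Ldha by -0.21 (exact permutation p = 0.135, adjusted 0.337). Per kb, Ldhb stood at 0.296 of Ldha in control and 0.256 in KO adipocytes. The 6 remaining ratios, Pfkm and Pfkp to Pfkl, Aldoc to Aldoa, Eno3 to Eno1, Slc16a3 to Slc16a1 and Pygl to Pygb, had exact permutation p of 0.270 to 0.921.

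Other genes of these pathways were compared in the same way. Of 78 further genes listed for glycolysis and gluconeogenesis, the pentose phosphate pathway, glycogen, their regulators and hypoxia, 66 were tested and 0 passed the limit (edgeR), beside 2.17% of all genes, with 42 log2 fold changes positive, 24 negative and a median of 0.041. Positive values were found in 11 of 20 genes of glycolysis and gluconeogenesis, 4 of 6 of the pentose phosphate pathway, 14 of 21 of glycogen, 3 of 8 regulators and 10 of 11 hypoxia-induced genes. An unadjusted p under 0.05 was reached by 5 of the 66, all positive, beside 11.9% of all genes. Pck2, the mitochondrial PEPCK, had 135, 147, 134, 121 and 134 CPM in controls and 141, 160.1, 182, 160.0 and 171 CPM in KO libraries, a log2 fold change of 0.28 (adjusted p = 0.0512, edgeR). Only KO 1 lay among the controls. The glycogen-binding Stbd1 had 22.2, 23.5, 23.5, 22.2 and 22.7 CPM in controls and 27.3, 28.6, 23.6, 31.1 and 24.7 CPM in KO libraries, a log2 fold change of 0.24 (adjusted p = 0.126, edgeR), and its groups did not overlap. Txnip, a glucose-induced inhibitor of glucose uptake, had 0.24 (adjusted p = 0.163), H6pd, the pentose phosphate dehydrogenase of the endoplasmic reticulum, 0.13 (adjusted p = 0.230) and Pgm1, a phosphoglucomutase, 0.14 (adjusted p = 0.381, edgeR).

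Without control 4 and KO 1, 8 of these 66 genes were called higher in KO libraries (edgeR), beside the 1.01% of all genes. They were Pck2, Pgm1, Ppp1r3b, Ppp1r3c, Txnip, Bnip3, Egln3 and Ndrg1, with log2 fold changes of 0.30, 0.16, 0.40, 0.32, 0.26, 0.34, 0.52 and 0.36. In that fit 44 of the 66 log2 fold changes were positive, and 16 positive and 1 negative had an unadjusted p under 0.05, beside 15.6% of all genes. Ppp1r3b and Ppp1r3c encode subunits that bring a phosphatase to glycogen.

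Markers of some other cell types moved with the genotype. Of 14 endothelial markers 11 fell in KO cultures at the adjusted limit (edgeR), beside 2.17% of all genes called in either direction. The summed level of the 14 was 197 to 239 CPM in control and 91.5 to 131 CPM in KO libraries, with none at 0. Of 10 progenitor and fibroblast markers 4 fell, with sums of 4279.7 to 5706 CPM in control and 3495 to 4182 CPM in KO libraries and none at 0. For 10 macrophage, 8 pericyte and smooth muscle and 4 skeletal muscle markers tested, 0 passed. Of the 8 pericyte and smooth muscle markers, 7 had negative log2 fold changes, with a median of -0.38. An unadjusted p under 0.05 (edgeR) was reached by 5 of these 8, all lower in KO libraries, beside 11.9% of all genes. The summed levels were 1374 to 2131 and 1211 to 2012 CPM for macrophages, 172 to 214 and 146 to 179.6 CPM for pericytes, and 12.0 to 17.1 and 9.47 to 17.5 CPM for muscle, in control and KO libraries in turn, with no listed marker at 0 in all libraries. The counts of fallen endothelial and progenitor markers were 12 and 4 without control 4 and KO 1, beside 3.47% of all genes called in either direction. Control 4 had the highest endothelial sum of the controls and KO 1 that of the KO libraries. The part of other cell types in the values of the glycolytic genes was not tested.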

How the data were processed

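RNA-seq of primary differentiated adipocytes gave 5 control and 5 KO libraries in the deposited table, more a group than the study states for its heatmap of these cultures, and all were used. The authors prepared SMARTer and Nextera XT libraries, used STAR and GRCm38.p6 to place paired-end reads, featureCounts to count fragments, and deposited raw counts per gene, with no normalization, filter or pooling. The strand setting is not given in the sources used here, so fragments of genes that overlap on opposite strands cannot be told apart, and exons of 17 of the 38 genes overlap another gene. How reads shared with near-identical copies were counted is not given either. Copies in 63 pseudogenes of 8 genes (blastn 2.17.0, at least 95% identity over 50% of the length) held at most 0.538% of the counts of gene and copies together. That share cannot show reads that were dropped because they matched both gene and copy. If such reads were dropped, the levels of these 8 genes, Gapdh among them, would be too low.

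Low genes were dropped by filterByExpr (minimum count 10) of edgeR 4.0.16 in R 4.3.3, libraries were scaled by TMM, and KO was tested against control over 14270 genes (quasi-likelihood test, Benjamini-Hochberg adjusted p limit 0.05). On simulated counts of 14148 genes for this comparison the test found 100% of genes altered 2-fold and 92% of genes altered by 0.5 log2 units, with 5.88% of 204 calls false. The simulation gave every gene the same dispersion, 0.0087. Its shares therefore do not hold for genes with a wider spread, such as Slc2a1 (SE 0.307, coefficient of variation 55.9% in control). Ratios were log2 of counts plus 0.5. Positions and exon lengths are those of GENCODE M21, matched by gene identifier without its version. The versions in the table are newer than those of M21 for all 38 genes, so the counts may rest on other gene models, or a later build, than the positions and the levels per kb.

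All genes of the list are given. Per-library values are printed for the 14 with the smallest p and for others chosen after their values were seen. The members and lists were chosen with earlier results of these data known. Alternatives were DESeq2 1.42.0, limma voom 3.58.1 with quality weights, RLE scaling, no filter, a replicate block, copies added to their genes and libraries left out. Leaving out control 4 and KO 1 together for the ratios was added after seeing the data. Libraries within a group differed by more than sampling noise (smallest chi-square per degree of freedom, 3.52), so none was counted as a duplicate. With 18949106 to 26237825 counts a library, depth limits the lowest genes.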

Additional observations from a re-analysis of the deposited data

Results flagged for a closer look

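Within a group of 5 libraries, the gap between the highest or lowest library and its neighbour was divided by the range of the group and set against Dixon's limit of 0.71. Over the 38 genes, the 10 ratios and the share of counts, 24 of 98 groups exceeded it, where chance gives about 4.9, and these groups are not independent because the genes move together. In all 24 the outlying library was the highest, control 4 in 15 and KO 1 in 9.

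For control 4 the gap ratio was 0.847 for Slc2a1, 0.855 for Hk1, 0.733 for Hk2, 0.827 for Gpi1, 0.712 for Pfkl, 0.912 for Pfkm and 0.886 for Pfkp. It was 0.717 for Aldoa, 0.797 for the other Aldoa gene, 0.793 for Aldoc, 0.736 for Pkm, 0.763 for Gys1, 0.806 for Ugp2, 0.795 for Gbe1 and 0.713 for the ratio of Aldoc to Aldoa. In the largest of these, Pfkm, control 4 had 59.1 CPM and the other controls 40.9 to 42.5 CPM.

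For KO 1 the gap ratio was 0.723 for Slc2a1, 0.807 for Gpi1, 0.734 for Aldoc, 0.796 for Tpi1, 0.755 for Gapdh, 0.831 for Eno1, 0.801 for Pkm, 0.724 for Ldha and 0.813 for the share of counts on the 38 genes. In the largest, Eno1, KO 1 had 1353 CPM and the other KO libraries 914 to 988 CPM. The 6 genes of the pentose phosphate pathway and the 3 of glycerol 3-phosphate and PEPCK gave no such group.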

How the results depend on the processing

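None of the 38 genes was called by DESeq2, with RLE scaling, with no filter on low counts, with the replicate number as a block or with copies added. Voom with quality weights called 1, Gpd2, and leaving out control 4 with KO 1 called 3. Leaving out single libraries called 0 to 1 (Gpd2, without control 4), and the median of the 38 log2 fold changes then ran from 0.031 (without KO 1) to 0.20 (without control 4). Over all genes 309 were called, 484 by DESeq2, 458 by voom, 498 without control 4 and KO 1 and 187 to 442 without a single library. Of the other pathway genes DESeq2 and the fit with no filter called 1 each, voom 2, the fit without control 4 and KO 1 8, and fits without a single library 0 to 3.

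Of 38 genes, 26 kept their sign in all 17 alternatives. The others reversed only when a single library was left out, with log2 fold changes of -0.13 to 0.53 for Slc2a1, -0.17 to 0.33 for Slc16a3, -0.21 to 0.056 for Hk1, -0.028 to 0.16 for Pfkm, -0.17 to 0.27 for Aldoc, -0.0057 to 0.20 for Gapdh, -0.061 to 0.20 for Eno1, -0.13 to 0.068 for Eno3, -0.039 to 0.22 for Pkm, -0.042 to 0.14 for Pfkfb3, -0.017 to 0.043 for Tkt and -0.019 to 0.044 for Rpia, and log2 ratios of -0.17 to 0.11 for Aldoc to Aldoa, -0.16 to 0.25 for Slc16a3 to Slc16a1 and -0.026 to 0.13 for Pygl to Pygb. A single ratio could not pass its adjustment in any alternative, so that the absence of calls there says nothing of stability. Libraries with the same replicate number deviated with correlations of -0.17, 0.089, 0.26, -0.25 and 0.034. Set against no reference spread, these cannot decide whether the libraries were paired. The study's methods name no pairing, so the main fit used none. The replicate block gave 214 calls over all genes and 0 of the 38.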

Other observations

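Of the 21 further glycogen genes, control 4 and KO 1 were both the highest of their groups in 7, and control 4 was the lowest control in 5. Among them Ppp1r3c, whose protein brings a phosphatase to glycogen, had 76.9, 74.1, 76.0, 141 and 83.8 CPM in controls 1 to 5 and 158, 102, 96.7, 92.1 and 97.4 CPM in KO 1 to 5. Ppp1r3b had 63.4, 60.8, 61.0, 143 and 74.1 CPM in controls and 144, 97.7, 81.6, 76.5 and 86.7 CPM in KO libraries. In both genes control 4 and KO 1 were the highest libraries, and the remaining KO libraries lay above the remaining controls. Ppp1r3d, of the same family, had 63.2, 62.3, 64.4, 59.5 and 63.6 CPM in controls and 49.2, 62.2, 62.2, 61.9 and 63.8 CPM in KO libraries, with KO 1 the lowest library of all.

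Epas1, which encodes the alpha subunit HIF-2, had 139, 133, 141, 188 and 143 CPM in controls and 181, 142, 118, 136 and 149 CPM in KO libraries, again highest in control 4 and KO 1. Ndrg1, a hypoxia-induced gene, had 55.6, 56.3, 65.7, 175 and 65.9 CPM in controls and 175, 88.2, 71.3, 71.6 and 80.7 CPM in KO libraries, and Car9, low throughout, 1.26, 1.01, 1.36, 2.08 and 1.31 CPM and 2.78, 1.23, 1.18, 1.92 and 1.53 CPM. Adm and P4ha2 had smaller contrasts, at 1.25 and 1.40 times the other controls in control 4 and 1.37 and 1.33 times the other KO libraries in KO 1.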
